A study of Mus musculus with 9 samples.

Results

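The bone morphogenetic protein (BMP) pathway was followed through 10 genes in sorted nephron progenitors of the mouse kidney: the ligands *Bmp4* and *Bmp7*, the secreted modulators *Grem1* and *Bmper*, the inhibitory SMADs *Smad6* and *Smad7*, and the target genes *Id1*, *Id2*, *Id3* and *Id4*. They were taken by symbol from the 26858 genes of the deposited count table, and all 10 were among the 14990 genes that passed the filter on low counts. The libraries were made from kidneys at age E18.5 in which a *Six2-eGFP/cre* transgene, Cre fused to eGFP under the *Six2* promoter, removed floxed *Qpc* (*Uqcrq*), which encodes a subunit of mitochondrial respiratory complex III. Cells positive for eGFP were sorted by flow cytometry from heterozygous *Six2-Qpc*+/- control kidneys (n = 4, replicates 71, 72, 73 and 76) and from *Six2-Qpc*-/- mutant kidneys (n = 5, replicates 74, 75, 77, 78 and 79). The controls therefore carried the transgene and 1 inactivated allele as well, and deletion was limited to the *Six2* lineage. The labels give neither litter nor sex, and they do not say whether each library came from a separate embryo, so p-values measure the spread between these libraries.

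BMPs are secreted dimers that bring type I and type II receptor kinases together. The type I receptor phosphorylates SMAD1, SMAD5 and SMAD9, which enter the nucleus with SMAD4 and switch on the *Id* genes. ID proteins in turn bind E proteins, the partners of tissue-specific basic helix-loop-helix factors, and keep them off DNA. In the developing kidney BMP7 maintains nephron progenitors and can prime them for commitment, and gremlin-1, by holding BMP4 in check, permits the ureteric bud to grow out.

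Each library held between 21040536 and 23986458 counts. Levels are given as CPM, counts per 1000000 of a library total adjusted with the TMM method, and changes as log2 fold changes of mutant against control from edgeR's quasi-likelihood test with Benjamini-Hochberg adjustment over all genes tested. The deleted gene followed the labels, at 94.1 ± 13.3 CPM in controls and 21.3 ± 4.45 CPM in mutants (SD, n = 4 and 5; log2 fold change -2.14, SE 0.16, adjusted p = 2.09e-05). *Six2*, which defines the sorted cells, lay between 506 and 795 CPM in all 9 libraries, and 0 of 9 progenitor markers passed the test. Summed stromal markers moved with genotype. Over 11 genes they lay between 138 and 236 CPM in controls and between 291 and 833 CPM in mutants. Of 10 tested, 5 were higher (*Foxd1*, *Pdgfra*, *Col1a1*, *Col3a1* and *Meis1*), and *Col1a2*, *Dcn*, *Lum* and *Postn* did not pass. *Pdgfrb*, the 1 with a fitted fall, did not pass either (log2 fold change -0.51, adjusted p = 0.315). Markers of committed nephron precursors, summed over 6 genes, lay between 308 and 555 CPM in controls and between 222 and 339 CPM in mutants. Of the 6 tested, 2 were lower (*Wnt4* and *Lhx1*), and *Pax8*, *Fgf8*, *Jag1* and *Lef1* did not pass. Most of the difference in the sum came from *Wnt4* (234 ± 81.0 against 68.7 ± 29.6 CPM), while *Pax8* stood at 182 ± 33.7 and 181 ± 48.6 CPM. The part of these shifts in the values that follow was not tested, and in such bulk samples fewer cells of a type and less RNA per cell cannot be told apart.

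Of the 10 BMP genes, *Bmper* alone passed the test, and it fell. Across all genes tested, 2225 of 14990 (14.8%) passed at an adjusted p under 0.05, 1172 (7.82%) higher and 1053 (7.02%) lower in mutants, so 1 of 10 is no excess over that background. The genotypes did not overlap for 1 of the 10 genes, again *Bmper*, against 15.2% of all genes tested. The median log2 fold change of the 10 genes was -0.04, beside -0.01 for all genes. The ligands, the inhibitory SMADs and the *Id* genes kept levels in mutants that overlapped those in controls, with intervals that differed much in width from gene to gene.

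**Figure D1:**
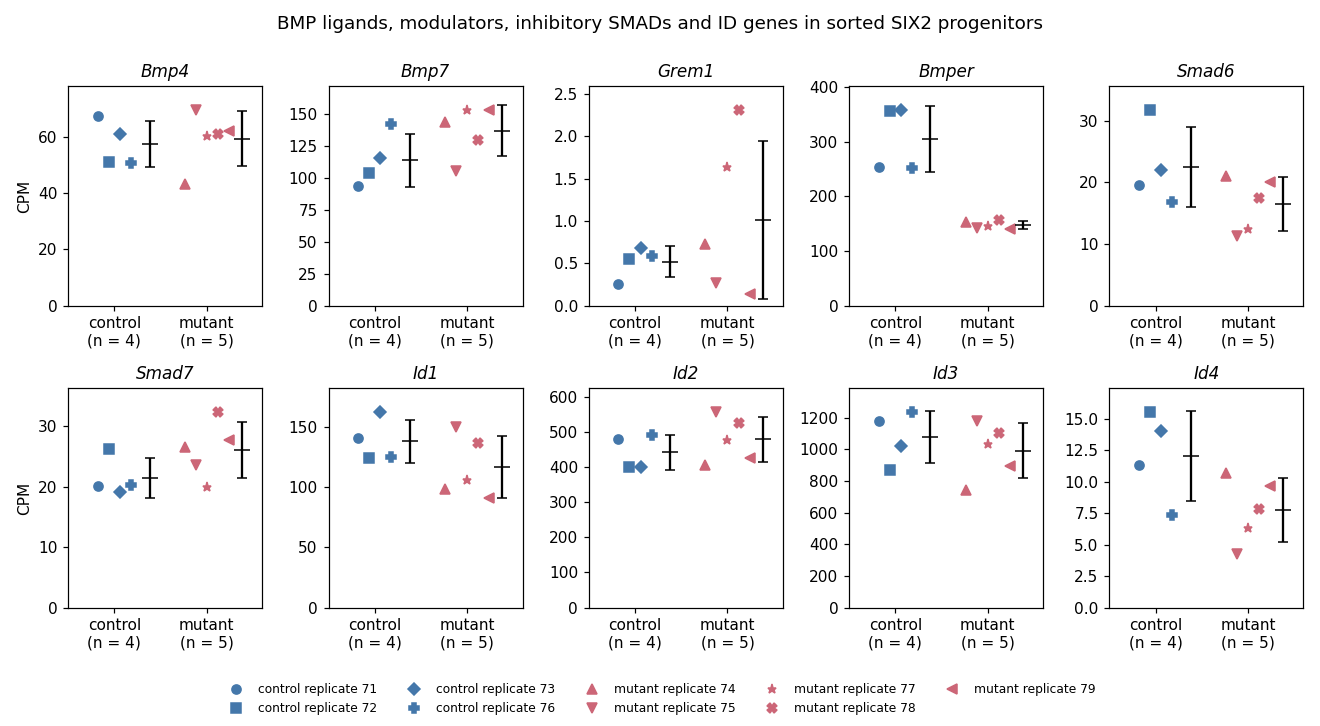
CPM of each of the 10 genes (y axis, from 0) in each of the 4 control (blue) and 5 mutant (red) libraries, 1 marker shape for each replicate, with the mean and SD of each genotype in black beside the points. The *Bmper* values of the genotypes are apart, 251 to 358 CPM against 141 to 157 CPM, and those of the other 9 genes overlap.

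Levels differed widely between the genes. Set per kilobase of the table's gene length, *Id3* stood highest in controls at 843 ± 130 CPM per kb, followed by *Id2* at 348 ± 39.0, *Id1* at 119 ± 15.4 and *Bmper* at 80.3 ± 16.0 CPM per kb (SD, n = 4). *Bmp7* at 30.9 ± 5.66 and *Bmp4* at 27.9 ± 3.99 CPM per kb came next and lay within each other's spread. *Smad6* at 7.59 ± 2.20 and *Id4* at 7.28 ± 2.16 CPM per kb also lay within each other's spread, *Smad7* was lower at 5.01 ± 0.77 CPM per kb, and *Grem1* came last at 0.125 ± 0.044 CPM per kb. In mutants the order of the first 3 was kept, but *Bmper* at 38.9 ± 1.87 CPM per kb no longer stood above *Bmp7* at 37.2 ± 5.46 CPM per kb beyond their spread (SD, n = 5). The table's length is below the joined GENCODE exons for some genes. It is 1660 against 3849 bases for *Id4*, 1270 against 2438 for *Id2* and 1278 against 1791 for *Id3*, but 1160 in both for *Id1*. The order of near levels, and the ratios and shares per kilobase below, therefore depend on the length used.

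*Bmper* encodes a secreted protein with von Willebrand factor type C domains that binds BMPs and, depending on context, restrains or promotes their signaling. The gene lies on the forward strand at chr9:23223076-23485202 (mm10; ENSMUSG00000031963, protein coding). It was counted at 253, 356, 358 and 251 CPM in control replicates 71, 72, 73 and 76, and at 154, 142, 145, 157 and 141 CPM in mutant replicates 74, 75, 77, 78 and 79. Every mutant library thus lay below every control library. The controls themselves formed a higher pair, 72 and 73, and a lower pair, 71 and 76, whereas the mutants were close together (305 ± 60.6 against 148 ± 7.10 CPM, SD). The log2 fold change was -1.05 (SE 0.13, 95% interval -1.33 to -0.77, adjusted p = 6.05e-04), a level in mutants of 0.484 times that in controls. Depth did not limit this value, with at least 2851 counts in every library.

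The fall of *Bmper* was called under each of 15 alternative treatments of the counts, with log2 fold changes between -1.15 and -0.96. The smallest change was seen without control replicate 73 (-0.96, adjusted p = 0.00362). Without mutant replicate 75, the library richest in stromal markers, it was -1.03 (adjusted p = 0.00174). Endothelial markers, summed over 7 genes, lay between 16.3 and 24.7 CPM in controls and between 7.67 and 14.3 CPM in mutants, a difference carried by *Plvap*, which fell (log2 fold change -1.88, adjusted p = 0.00121). The other endothelial markers did not follow it: of 5 genes tested, *Pecam1* rose (2.42, adjusted p = 0.0469), *Flt1* (1.41), *Kdr* (0.74) and *Emcn* (-0.17) did not pass, and the median log2 fold change was 0.74. The defining gene *Cdh5*, too low to be tested, was at 0 in 3 of 4 controls and higher in every mutant, at 0.0984 to 0.724 CPM. The *Bmper* level exceeded the whole endothelial sum in every library, but levels of different genes do not show which cells the reads came from. Summed committed markers were lower in mutants as well, with overlap, at 222 to 339 CPM against 308 to 555 CPM in controls. The paper could not fully exclude capture of differentiating control cells with low GFP. The part of stromal, endothelial and committed cells in the fall of *Bmper* was not tested.

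The promoter of *Bmper* is shown because it belongs to the gene whose level changed, and those of *Smad6* and 3 *Id* genes are shown further on for comparison. Each sequence, from RefSeq on GRCm38.p6, runs from 250 bases before the transcription start site to 50 bases from it on. Capitals mark matches on either strand to motifs known for SMAD binding: the GC-rich element GGCGCC, which reads the same on both strands, the element GGAGCC, which on the other strand reads GGCTCC, and the palindrome GTCTAGAC. Of 32851 promoters of the same length, 11.9% held GGCGCC, 30.8% held GGAGCC and 0.213% held GTCTAGAC. Promoters of 7 of the 10 genes were searched, of which 3 (*Grem1*, *Id2* and *Id4*) held GGCGCC, 6 held GGAGCC and 1 (*Smad6*) held GTCTAGAC. Those of *Bmp7*, *Smad7* and *Id1* were not searched, so these counts leave them out. The *Bmper* window, chr9:23222826-23223125 on the forward strand, held GGCTCC at 3 places, and its GC content was 72.7%. A match is a match of letters and does not show that a SMAD binds there.
Bmper promoter: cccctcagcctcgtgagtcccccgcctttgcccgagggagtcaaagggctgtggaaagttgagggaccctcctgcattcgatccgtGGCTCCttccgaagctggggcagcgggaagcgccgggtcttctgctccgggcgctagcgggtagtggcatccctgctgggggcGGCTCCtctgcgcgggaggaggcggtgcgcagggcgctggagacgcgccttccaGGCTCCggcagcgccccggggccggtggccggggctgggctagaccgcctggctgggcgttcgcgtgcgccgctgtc

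*Grem1* encodes gremlin-1, a secreted antagonist that binds BMP2, BMP4 and BMP7, and lies at chr2:113746164-113758646 on the reverse strand. Its counts were low, with 6, 14, 16 and 14 counts in control replicates 71, 72, 73 and 76 and 17, 6, 32, 47 and 3 counts in mutant replicates 74, 75, 77, 78 and 79. Mutants 77 and 78 were above all other libraries, and mutant 79 was below them all. In CPM the range was 0.256 to 0.674 in controls and 0.136 to 2.31 in mutants. The log2 fold change of 0.96 had an SE of 0.70 and a 95% interval of -0.55 to 2.46 (adjusted p = 0.377), so neither a rise nor a fall was distinguished from no change. Leaving out mutant replicate 78 gave 0.40 (adjusted p = 0.755).

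Of the ligands, *Bmp7* lies on the reverse strand at chr2:172868012-172940321 and encodes the BMP made by the cap mesenchyme and ureteric bud. Its level was 93.3, 104, 115 and 142 CPM in control replicates 71, 72, 73 and 76, and 143, 105, 153, 130 and 153 CPM in mutant replicates 74, 75, 77, 78 and 79. Mutants 74, 77 and 79 were above all controls, but mutants 75 and 78 lay among the controls and control 76 among the mutants. In the fit, the log2 fold change was 0.27 (SE 0.15, 95% interval -0.05 to 0.59, adjusted p = 0.230). The interval reaches from 0.968 to 1.5 times the control level, so a fall below the lower bound is outside it, and a rise within it was not distinguished from none. The value was 0.41 without control replicate 76 (adjusted p = 0.0786) and 0.35 without mutant replicate 75 (adjusted p = 0.119).

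*Bmp4*, on the reverse strand at chr14:46383520-46390669, encodes a ligand best known in the kidney from the stroma and the mesenchyme around the ureter. It stood at 67.7, 51.1, 61.1 and 50.7 CPM in control replicates 71, 72, 73 and 76 and at 43.3, 69.7, 60.5, 61.2 and 62.3 CPM in mutant replicates 74, 75, 77, 78 and 79. The lowest and the highest of the 9 libraries, 74 and 75, were both mutants, and the genotypes overlapped throughout. The fitted log2 fold change was 0.04 (SE 0.15, 95% interval -0.28 to 0.36, adjusted p = 0.874), and its sign changed when mutant replicate 75 was left out (-0.02). Mutants 74 and 75, which lay at opposite ends for *Bmp4*, had the highest summed stromal markers of all libraries, at 553 and 833 CPM. The part of stromal cells in the *Bmp4* level was not tested. The gene shares 89 exon bases with *Gm15217* on the other strand, which had 1 to 5 counts per library.

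The balance of modulator to ligand was followed as a ratio. Per kilobase, *Bmper* stood at 1.72 to 3.32 times *Bmp7* in controls and at 0.892 to 1.31 times in mutants. Relative to *Bmp4* it was 2.04 to 3.79 times in controls and 1.11 to 1.93 times in mutants. The ratio of *Bmp7* to *Bmp4* overlapped, at 0.776 to 1.57 in controls and 0.848 to 1.86 in mutants. These are 3 of 5 ratios that were chosen after the values were seen, and they were not tested.

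**Figure D2:**
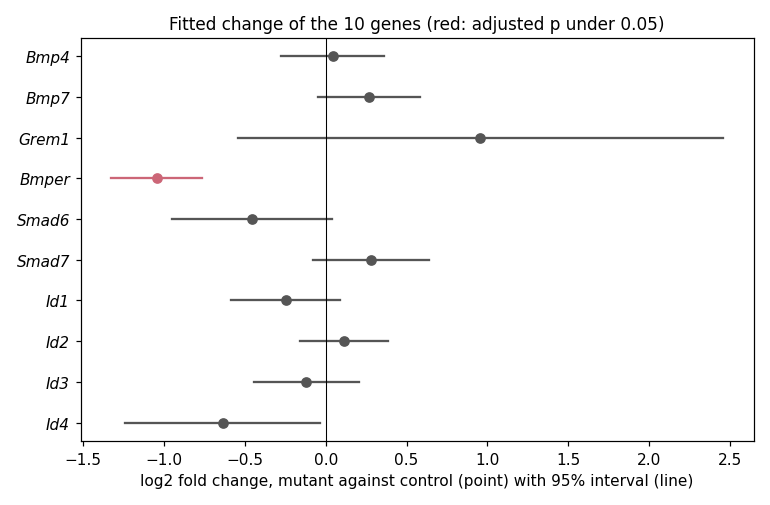
Log2 fold change of mutant against control (x axis) for each of the 10 genes (y axis), with the 95% interval as a line and the genes past the threshold in red. *Bmper*, at -1.05, is the gene past the threshold; the interval of *Id4* ends at -0.03 before adjustment, and that of *Grem1*, from -0.55 to 2.46, is the widest.

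The inhibitory SMADs are induced by the pathway and feed back on it. SMAD6 acts mainly on the BMP branch, and SMAD7 blocks type I receptors of both the BMP and the TGF-beta branch. *Smad6*, on the reverse strand at chr9:63953076-64022059, was at 19.6, 31.8, 22.0 and 16.8 CPM in control replicates 71, 72, 73 and 76 and at 21.1, 11.3, 12.4, 17.4 and 20.01 CPM in mutant replicates 74, 75, 77, 78 and 79. Control 72 was the highest and mutants 75 and 77 were the lowest, with overlap in between. The log2 fold change was -0.45 (SE 0.23, 95% interval -0.95 to 0.04, adjusted p = 0.193), and -0.24 without control replicate 72 (adjusted p = 0.541). The *Smad6* promoter, chr9:64022010-64022309 on the reverse strand, held GGAGCC at 2 places and the palindrome GTCTAGAC across the start site, from base -4 to base 4 with the start site as base 1 and no base 0.
Smad6 promoter: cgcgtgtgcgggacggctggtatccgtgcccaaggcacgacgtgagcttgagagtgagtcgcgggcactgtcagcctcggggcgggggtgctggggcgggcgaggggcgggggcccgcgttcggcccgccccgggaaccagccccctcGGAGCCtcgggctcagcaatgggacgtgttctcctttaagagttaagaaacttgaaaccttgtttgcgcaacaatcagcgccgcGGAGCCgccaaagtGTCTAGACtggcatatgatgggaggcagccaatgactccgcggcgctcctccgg

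*Smad7*, on the forward strand at chr18:75367529-75395935, stood at 20.02, 26.3, 19.1 and 20.3 CPM in control replicates 71, 72, 73 and 76. In mutant replicates 74, 75, 77, 78 and 79 it stood at 26.6, 23.6, 19.9, 32.4 and 27.7 CPM. Control 72 lay apart from the other controls and among the mutants, whereas mutant 77 lay among the controls. In the fit, the log2 fold change was 0.28 (SE 0.17, 95% interval -0.08 to 0.64, adjusted p = 0.270), and 0.39 without control replicate 72 (adjusted p = 0.183). Within a library, *Smad7* per kilobase was 0.574 to 0.840 times *Smad6* in controls and 0.876 to 1.45 times in mutants. That ratio did not overlap between genotypes although neither gene passed the test, and it too was picked among the 5 after its values were seen and was not tested.

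The *Id* genes encode helix-loop-helix proteins without a DNA-binding region and are standard readouts of BMP signaling. Together they made up 1410 to 1861 CPM in controls and 1259 to 1890 CPM in mutants. Of the summed level per kilobase, *Id3* gave 63.8 ± 2.05% in controls and 61.6 ± 1.72% in mutants, and *Id2* gave 26.5 ± 1.41% and 30.1 ± 1.15%. *Id1* gave 9.13 ± 1.605% and 7.94 ± 0.82%, and *Id4* gave 0.574 ± 0.234% and 0.396 ± 0.188% (SD, n = 4 and 5). None of the 4 genes passed the test.

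*Id1* lies on the forward strand at chr2:152736251-152737410. It was at 140, 124, 162 and 125 CPM in control replicates 71, 72, 73 and 76 and at 98.4, 150, 105, 137 and 90.8 CPM in mutant replicates 74, 75, 77, 78 and 79. Mutants 74, 77 and 79 were below all controls, while mutants 75 and 78 lay among them. The fitted log2 fold change was -0.25 (SE 0.16, 95% interval -0.58 to 0.09, adjusted p = 0.307), and -0.35 without mutant replicate 75 (adjusted p = 0.138).

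*Id2*, on the reverse strand at chr12:25093801-25096092, was at 479, 400, 398 and 490 CPM in control replicates 71, 72, 73 and 76 and at 405, 557, 476, 526 and 427 CPM in mutant replicates 74, 75, 77, 78 and 79. The highest libraries, 75 and 78, were mutants, and the remaining mutants lay within the range of the controls. The log2 fold change was 0.11 (SE 0.13, 95% interval -0.16 to 0.39, adjusted p = 0.580). *Id3*, on the forward strand at chr4:136143497-136145755, was the most abundant of the genes, at 1180, 870, 1020 and 1238 CPM in control replicates 71, 72, 73 and 76 and at 746, 1179, 1036, 1103 and 893 CPM in mutant replicates 74, 75, 77, 78 and 79. Mutant 74 was lowest and control 76 highest, and the other libraries were mixed. In the fit, the log2 fold change was -0.12 (SE 0.15, 95% interval -0.44 to 0.20, adjusted p = 0.628). With 17498 counts or more for *Id3* and 9340 or more for *Id2* in each library, counting error was small beside the spread between libraries, and the intervals reach from 0.735 to 1.15 times the control level for *Id3* and from 0.896 to 1.31 times for *Id2*.

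*Id4*, on the forward strand at chr13:48261427-48264036, was much less abundant, at 11.4, 15.6, 14.0 and 7.38 CPM in control replicates 71, 72, 73 and 76 and 10.7, 4.29, 6.32, 7.87 and 9.66 CPM in mutant replicates 74, 75, 77, 78 and 79. Controls 71, 72 and 73 stood above every mutant, and control 76 stood among the mutants. The fitted log2 fold change was -0.64 (SE 0.28, 95% interval -1.24 to -0.03), and with an adjusted p of 0.138 it did not pass the test (unadjusted p = 0.0397, as for 4709 of all genes with an unadjusted p under 0.05). It passed with limma-voom and sample quality weights (log2 fold change -0.84, adjusted p = 0.0201). It did not pass without control replicate 76 (-0.80, adjusted p = 0.0637) or without mutant replicate 75 (-0.48, adjusted p = 0.236). Control 76 also had the lowest summed committed markers of the controls, 308 CPM, and mutant 75 the lowest of all libraries, 222 CPM; their part in the *Id4* level was not tested. On the other strand the gene shares 171 exon bases with *Gm49291*, which has no value here, and 82 with the antisense gene *A330033J07Rik*, which had 3 to 23 counts per library, and reads from overlapping strands cannot be told apart in these libraries.

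The promoters of *Id2*, *Id3* and *Id4* are shown for the motif letters of the target genes. That of *Id2*, chr12:25096043-25096342 on the reverse strand, held GGCGCC once and likewise the element GGAGCC, as did that of *Id4*, chr13:48260866-48261165 on the forward strand. That of *Id3*, chr4:136143572-136143871 on the forward strand, held GGCTCC once and no GGCGCC. The RefSeq start sites of *Id3* and *Id4*, at 136143822 and 48261116, differ from the gene starts in the count table.
Id2 promoter: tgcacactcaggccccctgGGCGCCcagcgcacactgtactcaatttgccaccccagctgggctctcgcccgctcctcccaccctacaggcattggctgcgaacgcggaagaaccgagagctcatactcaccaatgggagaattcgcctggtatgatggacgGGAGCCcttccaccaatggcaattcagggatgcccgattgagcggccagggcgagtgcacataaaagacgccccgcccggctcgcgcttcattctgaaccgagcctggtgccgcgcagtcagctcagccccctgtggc
Id3 promoter: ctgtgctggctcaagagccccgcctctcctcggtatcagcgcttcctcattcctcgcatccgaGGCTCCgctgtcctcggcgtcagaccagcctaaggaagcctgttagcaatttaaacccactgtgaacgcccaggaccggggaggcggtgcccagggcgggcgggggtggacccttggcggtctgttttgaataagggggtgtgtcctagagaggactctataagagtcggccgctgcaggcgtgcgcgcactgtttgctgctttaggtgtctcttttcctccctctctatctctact
Id4 promoter: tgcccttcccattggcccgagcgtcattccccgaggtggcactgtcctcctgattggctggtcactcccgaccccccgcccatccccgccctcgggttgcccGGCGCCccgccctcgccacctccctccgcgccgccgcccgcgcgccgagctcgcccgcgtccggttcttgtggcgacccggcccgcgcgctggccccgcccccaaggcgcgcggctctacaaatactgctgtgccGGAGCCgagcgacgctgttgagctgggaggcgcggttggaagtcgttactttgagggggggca

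The genes did not vary across the libraries as a block. Mutant 75 had the highest level among the mutants for *Bmp4*, *Id1*, *Id2* and *Id3* and the lowest for *Bmp7*, *Smad6* and *Id4*. Control 76 had the highest level among the controls for *Bmp7*, *Id2* and *Id3* and the lowest for *Bmp4*, *Bmper*, *Smad6* and *Id4*. The 5 libraries with the most *Smad6* were also the 5 with the most *Id4*: all controls but 76, and mutants 74 and 79. The same 5 libraries had the most of the markers *Jag1*, *Lef1* and *Gdnf*, so this order was not particular to the BMP genes. With summed stromal markers at 833 CPM, mutant 75 also stood apart from the other mutants, which reached at most 553 CPM.

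**Figure D3:**
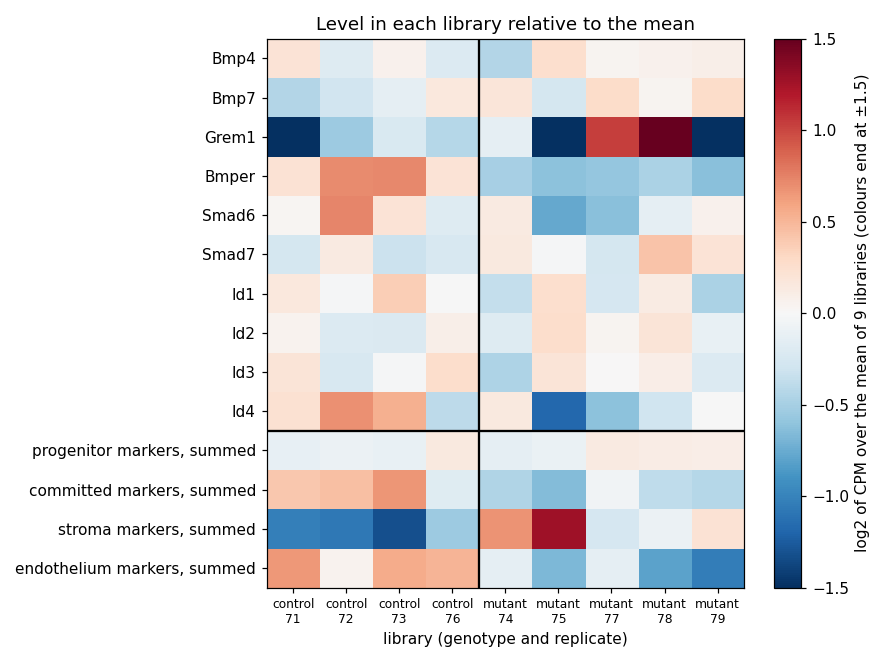
Level of each of the 10 genes and of 4 summed marker lists (y axis) in each library (x axis, controls left of the line), as the log2 of CPM over the mean of the 9 libraries. Colours end at 1.5 in either direction. *Bmper* (251 to 358 against 141 to 157 CPM), the summed stromal markers (138 to 236 against 291 to 833 CPM) and the summed endothelial markers (16.3 to 24.7 against 7.67 to 14.3 CPM) separate the genotypes, and *Id1*, *Id2* and *Id3* do not. The endothelial difference is carried by *Plvap*. Of 5 endothelial genes tested, 3 had a fitted rise and 2 a fitted fall.

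Beyond these 10 genes, the pathway was read from a list of 51 ligands, receptors, SMADs, modulators, restraints, targets and E proteins, of which 41 passed the filter. Of these, 12 (29.3%) passed the test, 6 higher and 6 lower in mutants, against 14.8% of all genes tested, and the genotypes did not overlap for 12, against 15.2%. The list was drawn up with earlier results of these data known, so its share above that background is no test of the pathway. The median log2 fold change of the 41 genes was 0.09. Among secreted modulators, *Chrdl1*, a chordin-like BMP antagonist, rose from 3.44 ± 0.634 to 8.27 ± 1.38 CPM (log2 fold change 1.26, adjusted p = 0.00391). *Fstl3*, a follistatin-like binder of activins, fell (-1.36, adjusted p = 0.0236), as did *Nbl1*, a DAN-family antagonist (-0.67, adjusted p = 0.0137), and *Bmp1*, the protease that cleaves chordin (-0.58, adjusted p = 0.0331). Secreted modulators thus moved in both directions, 1 higher and 3 lower among 13 tested.

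Closest to the *Id* genes are the receptors and SMADs that act on them. *Smad5* rose by 0.49 on the log2 scale (adjusted p = 0.0165), from 79.1 ± 11.3 to 111 ± 6.49 CPM, and *Smad1* had a log2 fold change of -0.24 (adjusted p = 0.208), *Smad9* of -0.37 (adjusted p = 0.311) and *Smad4* of 0.23 (adjusted p = 0.287). Of 9 receptor genes, the type II receptors *Bmpr2* (0.47, adjusted p = 0.0416) and *Acvr2a* (0.70, adjusted p = 0.0356) rose, and the type I receptors *Bmpr1a* (0.19), *Bmpr1b* (-0.23), *Acvr1* (0.30) and *Acvrl1* (0.79) did not pass, nor did *Acvr2b* (-0.01) or the co-receptors *Rgma* (0.57) and *Rgmb* (0.42). *Acvr2a* shares 446 exon bases with *Orc4* on the other strand, which had 1593 to 3564 counts per library, so its value is uncertain. Of the restraints, *Bambi*, a pseudoreceptor that is also a BMP target, fell from 49.4 ± 6.12 to 25.5 ± 5.44 CPM (-0.95, adjusted p = 0.00429), and *Ski*, a SMAD corepressor, rose (0.56, adjusted p = 0.0177). Of 3 further targets tested, *Msx2*, a homeobox gene (-1.71, adjusted p = 0.00373), and *Atoh8*, a basic helix-loop-helix gene (-1.04, adjusted p = 0.0113), fell. The most abundant, *Hey1*, at 149 ± 26.6 CPM in controls and 130 ± 20.5 CPM in mutants, did not pass (-0.20, adjusted p = 0.377). Counts of *Msx2* were low, 16 to 27 in each mutant library, as were those of *Fstl3*, 12 to 38 in each mutant library. Whether the changes of these targets differ from those of the *Id* genes was not tested. *Tcf12*, an E protein and so a partner of the ID proteins, rose (0.52, adjusted p = 0.0156), while *Tcf3* and *Tcf4* had log2 fold changes of -0.24 and -0.10.

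Of the 12 calls, 7 crossed the threshold when libraries were left out, while their log2 fold changes kept their direction and much of their size. These ranged from 0.40 to 0.62 for *Bmpr2*, 0.52 to 0.87 for *Acvr2a*, 0.42 to 0.59 for *Smad5*, 0.51 to 0.64 for *Ski* and 0.46 to 0.64 for *Tcf12*, and from -1.51 to -1.16 for *Fstl3* and -0.71 to -0.49 for *Bmp1*. Calls over all genes fell from 2225 to 1046 without control replicate 73 and to 1272 without control replicate 72. Without control replicate 73, 5 of the 12 stayed past the threshold; *Smad5* (adjusted p = 0.0656), *Ski* (0.0616), *Tcf12* (0.0566), *Fstl3* (0.0785), *Bmp1* (0.0833), *Acvr2a* (0.0897) and *Bmpr2* (0.125) were lost. Without control replicate 72, *Fstl3* (0.0868), *Bmp1* (0.101), *Acvr2a* (0.0686) and *Bmpr2* (0.122) were lost. *Bmpr2*, *Acvr2a* and *Bmp1* also lost their calls without control replicate 71 (adjusted p = 0.0922, 0.0755 and 0.0528) and without mutant replicates 75 (0.0751, 0.0555 and 0.0692), 77 (0.0570, 0.0809 and 0.0727) or 78 (0.0898, 0.0724 and 0.0780), and *Bmpr2* without mutant replicate 79 (0.0828), with upper-quartile normalization (0.0517) or with all genes of at least 1 count (0.0577). *Bmper*, *Chrdl1*, *Nbl1*, *Bambi*, *Msx2* and *Atoh8* passed whichever library was left out.

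The TGF-beta and activin branch, which shares SMAD4 and SMAD7 with the BMP branch, was read from 20 genes, of which 17 were tested. Of these 3 (17.6%) passed, all higher, a share near the 14.8% of all genes tested, and the median log2 fold change was 0.26. *Tgfbr3*, the co-receptor betaglycan, rose from 4.20 ± 0.954 to 12.03 ± 4.20 CPM (1.52, adjusted p = 0.00420). The ligand *Tgfb1* rose from 0.779 ± 0.283 to 2.32 ± 0.929 CPM (1.57, adjusted p = 0.0209), and *Smad2*, a SMAD of this branch, rose by 0.58 on the log2 scale (adjusted p = 0.0345). Counts of *Tgfb1* were low, 12 to 29 in each control library and 32 to 78 in each mutant library. Summed stromal markers were higher in mutants. Myeloid markers, 0 of 4 of which passed the test, summed to between 0.213 and 9.58 CPM in controls and between 4.603 and 94.8 CPM in mutants. The part of both was not tested. On leaving out 1 library the log2 fold change stayed between 1.31 and 1.80 for *Tgfb1* and between 0.49 and 0.71 for *Smad2*. Their calls were lost without control replicate 71 (adjusted p = 0.0602 and 0.0859) or 73 (0.0524 and 0.100) and without mutant replicate 78 (0.0595 and 0.0815). *Smad2* was lost as well without control replicate 72 (0.0963) and without mutant replicates 75 (0.0604) or 77 (0.0809).

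**Figure D4:**
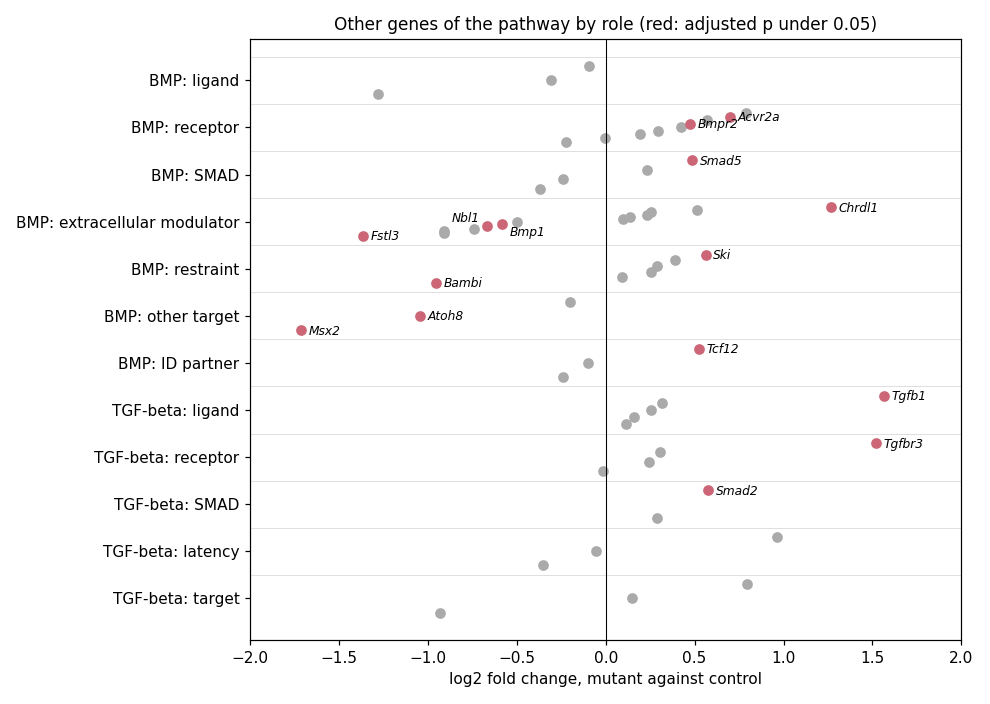
Log2 fold change of mutant against control (x axis) for the tested genes of the BMP list (41) and of the TGF-beta and activin list (17), in rows by role, with genes past the threshold in red and named; height within a row only spreads the points. The 12 named BMP genes fall on both sides of 0, and the 3 named TGF-beta genes lie above it.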

How the data were processed

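RNA was amplified from sorted eGFP+ cells with an ultra-low-input kit, and poly(A)-selected libraries without strand information were sequenced, per the labels. The submitters' processing notes name STAR, DESeq2 and mm10; the counter and annotation are not given in the sources used here. The deposited table holds 1 column of read counts per gene for each library, which were used as deposited. It also holds FPKM values, genotype means of normalized signal, and the log2 fold changes and p-values of the authors' own comparison, none of which were used. Gene lengths came from the same table.

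Genes were kept with filterByExpr (minimum count 10, minimum total count 15) and fitted with edgeR 4.0.16 (R 4.3.3; TMM normalization, robust quasi-likelihood test, mutant against control over all 9 libraries, no covariate), with Benjamini-Hochberg adjustment over all genes tested and a threshold of 0.05. The standard error is the absolute log2 fold change over the square root of the F statistic, and 95% intervals used the t distribution with the degrees of freedom of the test. The script was tested on simulated data. Alternatives were DESeq2 1.42.0, limma-voom 3.58.1 with sample quality weights, RLE and upper-quartile normalization, other filters on low counts, and each library left out in turn. No pair of libraries was identical (0 pairs). The 10 genes and all lists were chosen with earlier results of these data known. Named are the 10 genes, *Uqcrq*, the genes of the pathway lists past the threshold, and the BMP receptors and SMADs tested. The target *Hey1*, the E proteins *Tcf3* and *Tcf4*, the exon-sharing neighbours and single marker genes were added with their values already known. The identifiers beside *Grem1* and *Bmpr2* in the table are not those of GENCODE, and both were matched by symbol and coordinates. Figures were drawn with matplotlib 3.10.9.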

Additional observations from a re-analysis of the deposited data

Results flagged for a closer look

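In 72 groups of 4 or 5 libraries (36 genes in each genotype), the highest or lowest library was compared with the others by Dixon's gap, and 2 passed the 95% critical value, where chance at 1 in 20 gives 3.6. *Smad7* in control replicate 72 was at 26.3 CPM, with the other controls between 19.1 and 20.3 CPM (gap over range 0.844). *Bambi* in control replicate 73 was at 58.5 CPM, with the other controls between 45.5 and 47.5 CPM (gap over range 0.850); without that library its log2 fold change was -0.86 (adjusted p = 0.0205).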

How the results depend on the processing

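The fall of *Bmper* kept its direction and its call in all 15 alternatives, and no other gene of the 10 was called except *Id4* with limma-voom, which made 2 of 10. Across all genes, 4868 were called with limma-voom and between 1046 (without control replicate 73) and 3136 (without mutant replicate 74) on leaving out 1 library, beside 2225; DESeq2 called 3213. The 51-gene BMP list had between 5 and 14 calls on leaving out 1 library, beside 12, and the TGF-beta and activin list between 1 and 3, beside 3. *Bmp4* changed sign on leaving out 1 library (range -0.020 to 0.14), and so did *Acvr2b* (range -0.15 to 0.15; 0.0069 with DESeq2 and 0.0056 with RLE normalization); neither was called, and the cause was not tested. *Grem1* was dropped by the filter of 10 counts in every library. No paired analysis was possible because control and mutant share no replicate numbers. *Grem1* had the fewest counts of the 10 genes, 3 to 47 per library.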
